A study of Mus musculus with 7 samples.

Results

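The CIS and SOCS family includes feedback inhibitors that cytokine receptors switch on against themselves. Its 8 genes (Cish and Socs1 to Socs7) are described here in pancreatic islets of pregnant mice. The members were every probe set whose platform annotation names 1 of these symbols alone, which gave 12 probe sets of 35556 and all 8 genes among 19938 genes tested. The test over genes took the brightest probe set of each gene, by its mean over the mice, and every probe set is described as well. Islets were taken on day 15 of pregnancy from female mice on the C57BL/6 strain background, mated at 12 to 16 weeks of age, and each mouse had its own Affymetrix expression array. The 3 PrlR+/+ mice were the wild type animals of the prolactin receptor null line, and the 4 PrlR+/- mice carried 1 null allele of the prolactin receptor gene. The labels name no cell type in which the allele is lost and no further treatment. The targeted gene was not analysed here, which leaves the genotypes as the labels give them. The labels state that each mouse was analysed separately.

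A CIS or SOCS protein carries an SH2 domain, which binds phosphorylated tyrosines on receptors or JAK kinases, and a SOCS box, which recruits elongins B and C and cullin 5 to mark bound proteins for degradation. SOCS1 and SOCS3 also hold a short region that inhibits JAK kinases directly. Lactogens acting through the prolactin receptor activate Jak2 and STAT5, and Cish and Socs2 are known STAT5 targets that rise in islets in pregnancy. The comparison of PrlR+/- with PrlR+/+ islets asks which islet transcripts depend on both receptor alleles in pregnancy.

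STAT5 binds the palindrome TTCNNNGAA, so the start-site windows of the members were searched for it. RefSeq windows (build GRCm38.p6, 250 bases before to 50 bases after a start) were given for 4 members, Cish, Socs1, Socs3 and Socs4. The motif reads the same on both strands, and matches were allowed to overlap. The Cish window held 2 matches, the Socs3 window 1, and the windows of Socs1 and Socs4 none. Of 32851 windows of this length, 8.30% held at least 1 match and 0.457% held 2 or more. The stretches of 30 bases around the matches are shown because Cish was among the lower members of the family; the matches are in capitals. The Cish stretch lies at chr9:107296654-107296683 on the plus strand, with its first match beginning at base 1 after the start and its second at base 12. The Socs3 stretch lies at chr11:117969501-117969530 on the minus strand, with its match beginning at base -154 relative to the start of that window. The Socs3 window (117969317 to 117969616) lies wholly within the RefSeq bounds of the gene (117966079 to 117970336). Its start is therefore inside these bounds, whereas the Cish start is at the end of its gene's bounds (107296659 to 107302784). The Socs3 match is thus not placed like those of Cish.
Cish: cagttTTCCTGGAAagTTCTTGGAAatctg
Socs3: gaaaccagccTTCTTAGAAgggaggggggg
A match describes these letters and shows no binding in the islets.

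Cish and Socs2 had the lowest unadjusted p of the family, and both were lower in PrlR+/- islets, while no member passed the test over all genes. A difference here is the PrlR+/- mean less the PrlR+/+ mean of log2 values, given with limma's moderated standard error (SE). By limma with Benjamini-Hochberg adjustment 0 of 8 members had an adjusted p under 0.05, and the same held for 0% of all genes, with a smallest adjusted p of 0.99. At an unadjusted p under 0.05, 2 members were on the lower side (Cish and Socs2), against 1.13% of all genes, and 0 were on the higher side, against 1.07%. The mean was lower in PrlR+/- islets for 6 of 8 members, though for Socs6 by no more than -0.000833, with a median difference of -0.062, against 43.8% of all genes and a median of 0.014. That median was -0.114 without PrlR+/+ 1, -0.11 without PrlR+/- 1 or without PrlR+/- 3, -0.018 without PrlR+/- 4 and -0.014 with array weights. In bulk islets, fewer cells that express a gene and less RNA per cell cannot be told apart.

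**Figure D1:**
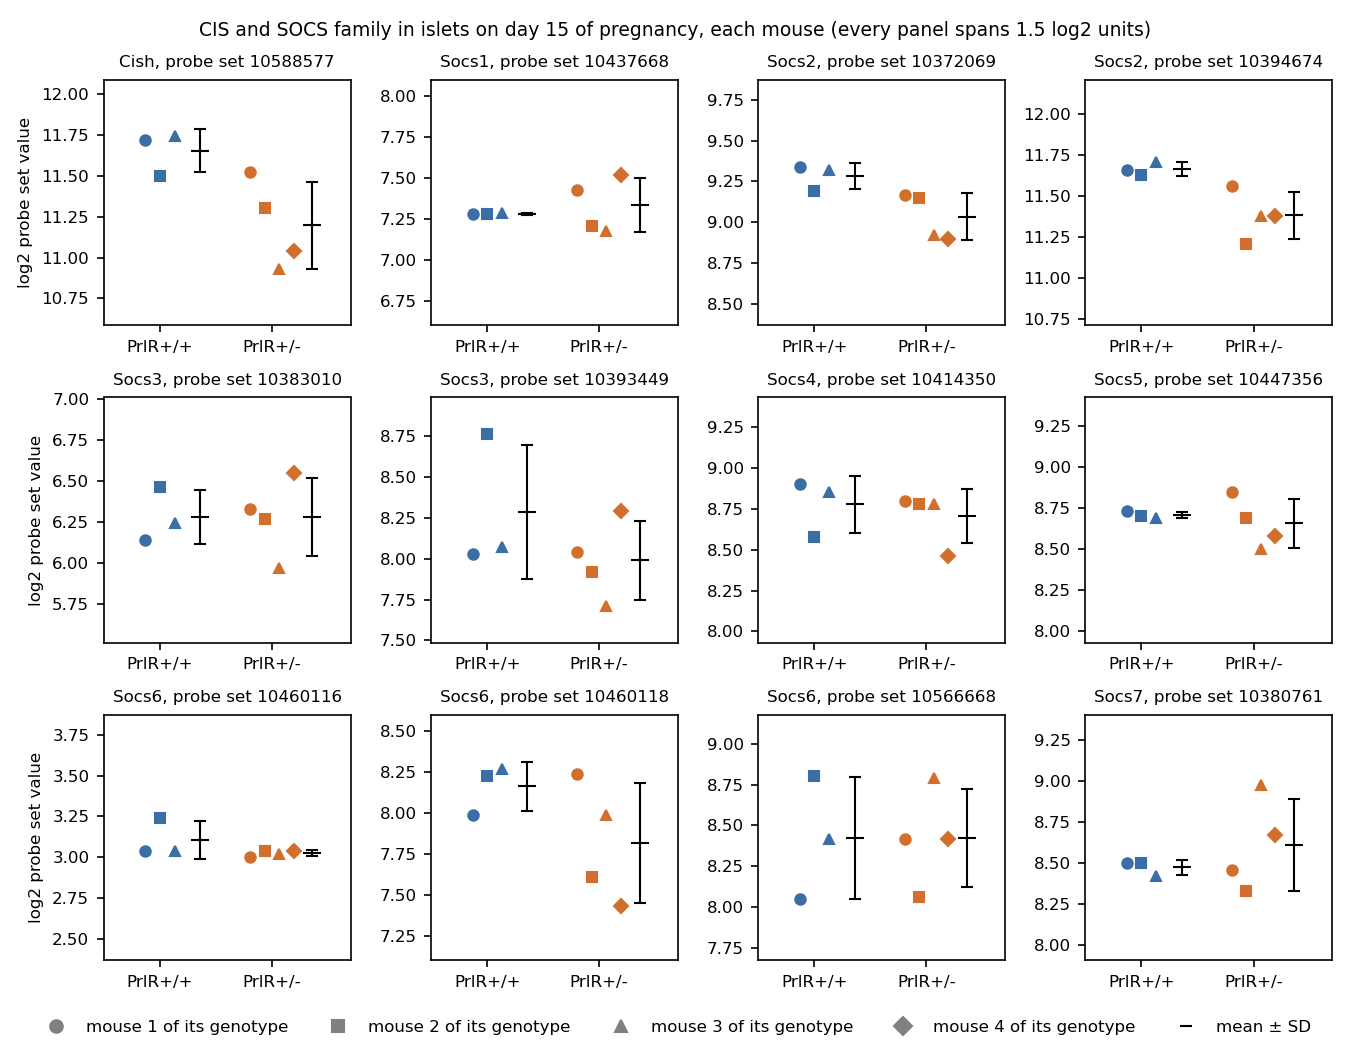
Log2 values of the 12 probe sets of the family in each of 3 PrlR+/+ (blue) and 4 PrlR+/- (orange) mice; the marker shape gives the mouse number within its genotype, the black bar is the mean and its whiskers the SD, and every panel spans the same range on its vertical axis. The PrlR+/- mice lie below every PrlR+/+ mouse in both Socs2 panels, and in the Cish panel PrlR+/- 3 and PrlR+/- 4 lie lowest.

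Cish encodes CIS, which binds receptors of the prolactin, growth hormone and erythropoietin type and limits STAT5 activation. Its 1 probe set (10588577) had log2 values of 11.72, 11.50 and 11.74 in PrlR+/+ 1 to 3 and of 11.52, 11.30, 10.93 and 11.04 in PrlR+/- 1 to 4. PrlR+/- 3 and PrlR+/- 4 were the lowest, and PrlR+/- 1 lay 0.02 above PrlR+/+ 2, so the groups overlapped by that margin. The means were 11.65 ± 0.13 (SD, n = 3) and 11.20 ± 0.27 (SD, n = 4). The difference was -0.46 ± 0.15 (SE), a ratio of 0.729 with a 95% interval of 0.573 to 0.927 (limma, unadjusted p = 0.0168, adjusted p = 0.99). By unadjusted p Cish was in place 77 of 19938 genes. The 2-sided exact permutation test over the 35 splits of the mice gave p = 0.0857; no split can give a p under 0.0286. With 1 mouse left out at a time the difference stayed between -0.56 (without PrlR+/- 1) and -0.37 (without PrlR+/- 3).

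Socs2 encodes the inhibitor best known for restraining growth hormone signalling. Its brighter probe set (10394674) had log2 values of 11.66, 11.63 and 11.71 in PrlR+/+ 1 to 3 and of 11.56, 11.21, 11.38 and 11.38 in PrlR+/- 1 to 4. The genotypes did not overlap, the PrlR+/- mice being lower by 0.07 at the closest, and PrlR+/- 2 was the lowest. The means were 11.67 ± 0.04 (SD, n = 3) and 11.38 ± 0.14 (SD, n = 4), and the difference was -0.28 ± 0.09 (SE), a ratio of 0.821 with a 95% interval of 0.714 to 0.945. By limma the unadjusted p was 0.0124, in place 47 of all genes, and the adjusted p was 0.99. The exact permutation test, 2-sided, gave p = 0.0571.

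The second Socs2 probe set (10372069) gave a like difference. It had log2 values of 9.34, 9.19 and 9.32 in PrlR+/+ 1 to 3 and of 9.17, 9.15, 8.92 and 8.90 in PrlR+/- 1 to 4, again with no overlap, by 0.02 at the closest. Here PrlR+/- 3 and PrlR+/- 4 were the lowest, as for Cish. The difference was -0.25 ± 0.09 (SE), a ratio of 0.842 with a 95% interval of 0.725 to 0.977 (limma over all probe sets, unadjusted p = 0.0291, adjusted p = 0.988); at an unadjusted p under 0.05, 1.15% of all probe sets were on the lower side. Non-overlap with every PrlR+/- mouse lower was found for 1 of 8 members (Socs2), against 1.21% of all genes, and with every PrlR+/- mouse higher for 0, against 1.03%; in either direction it was 2.24% of all genes. Over probe sets, 2 of 12 had every PrlR+/- mouse lower, both of them of Socs2, against 1.24% of all probe sets with 1 symbol. Among the 999 genes with more than 1 probe set, 9 had every PrlR+/- mouse lower in each of their probe sets, or 0.901%, and Socs2 was 1 of them. The probe sets of a gene come from the same arrays and are not replicates of each other.

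The place of the brighter Socs2 probe set was not settled. Of the 20 named probe sets nearest to it in identifier, 10 on each side, 17 name genes on chromosome 12, whereas 19 of 20 around the other Socs2 probe set name genes on chromosome 10, which holds Socs2 (RefSeq gene table, GRCm38.p6). The same was seen for Socs6, whose brightest probe set (10566668) had 20 of 20 such neighbours on chromosome 7, while Socs6 lies on chromosome 18. For the remaining probe sets of the family, the gene's own chromosome was the one named most often, for 10 to 20 of 20 neighbours. The probes were not mapped to a genome here, and the values of the brighter Socs2 and Socs6 probe sets are uncertain as to the gene.

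**Figure D2:**
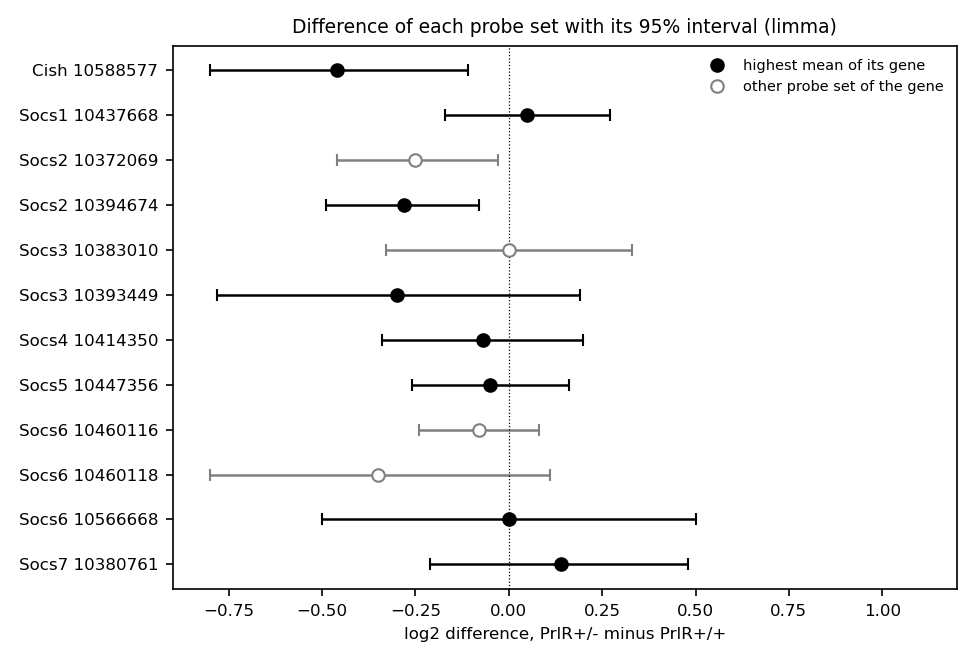
Log2 difference of PrlR+/- minus PrlR+/+ islets for each of the 12 probe sets (points), with 95% intervals from limma (bars); filled points mark the probe set with the highest mean of its gene. The intervals of Cish and of both Socs2 probe sets lie below 0, and those of the other 9 probe sets include 0.

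Cish and the Socs2 probe set among chromosome 10 genes ordered the mice alike. Over the 7 mice their Pearson r was 0.975 (exact permutation p = 0.00159, adjusted 0.0111) and their Spearman rho 0.893 (exact permutation p = 0.0123, adjusted 0.0574), adjusted over 7 pairs of probe sets. Without PrlR+/- 3 and PrlR+/- 4, the mice farthest from the Cish median, r was 0.924. The correlation pools both genotypes and so includes the difference between them; computed on deviations from the genotype means it was 0.939. This pair was singled out after its values were seen. The pairs of Cish with each Socs2 probe set were put among those 7 in that way, so the adjusted p does not correct for the choice. With the brighter Socs2 probe set, Cish had r = 0.777 and rho = 0.847, and r = 0.393 on deviations from the genotype means; over the 28 pairs of member genes the exact permutation p was 0.046 for r (adjusted 0.33) and 0.0246 for rho (adjusted 0.689), and r was 0.897 without PrlR+/- 3 and PrlR+/- 4. Of the other pairs of member genes, Cish with Socs5 had r = 0.762 (exact permutation p = 0.0397, adjusted 0.33), which was 0.005 without PrlR+/- 3 and PrlR+/- 4 and so rests on those mice; on deviations from the genotype means it was 0.922. Its rho was 0.685 (exact permutation p = 0.1, adjusted 0.7). Cish with Socs7 (r = -0.732, exact permutation p = 0.0464) and Socs5 with Socs7 (r = -0.777, exact permutation p = 0.0472) ran in opposite directions over the mice, both with an adjusted p of 0.33, and Cish with Socs7 turned to r = 0.59 without PrlR+/- 3 and PrlR+/- 4. The 2 Socs2 probe sets themselves had r = 0.678 and rho = 0.847 (exact permutation p = 0.101 and 0.0246, adjusted 0.177 and 0.0574), with r = 0.70 without PrlR+/- 4 and PrlR+/- 3 and r = 0.134 on deviations from the genotype means. The difference lies in PrlR+/- 2, which was lowest with the brighter probe set and close to PrlR+/- 1 with the other.

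**Figure D3:**
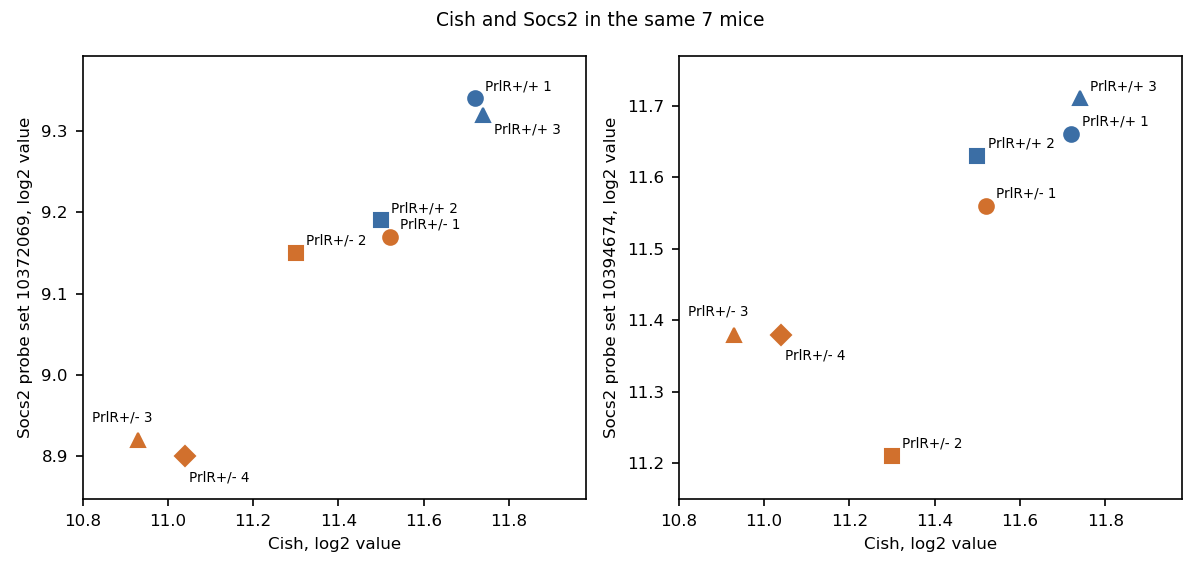
Log2 value of Cish (horizontal axis) against each Socs2 probe set (vertical axis) in the same 3 PrlR+/+ (blue) and 4 PrlR+/- (orange) mice, 1 labelled point a mouse. On the left the points rise together (r = 0.975), with PrlR+/- 3 and PrlR+/- 4 at the low end; on the right PrlR+/- 2 lies below the others at 11.21.

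Socs1 and Socs3, the members that inhibit JAK kinases directly, did not pass, and neither had an unadjusted p under 0.05. Socs1, a brake on interferon gamma signalling, had log2 values of 7.28, 7.28 and 7.29 in PrlR+/+ 1 to 3 and of 7.43, 7.21, 7.18 and 7.52 in PrlR+/- 1 to 4. The PrlR+/- mice lay on both sides of the narrow PrlR+/+ range, 2 above and 2 below. The difference was 0.05 ± 0.09 (SE), a ratio of 1.04 with a 95% interval of 0.889 to 1.21 (limma, adjusted p = 0.99).

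Socs3, the inhibitor of gp130 and leptin receptor signalling, was high in 1 PrlR+/+ mouse. Its brighter probe set (10393449) had log2 values of 8.03, 8.76 and 8.07 in PrlR+/+ 1 to 3 and of 8.04, 7.92, 7.71 and 8.29 in PrlR+/- 1 to 4. The highest value was that of PrlR+/+ 2, and the groups overlapped. The difference of -0.30 ± 0.21 (SE), a ratio of 0.814 with a 95% interval of 0.581 to 1.14, was -0.06 without PrlR+/+ 2. The dimmer Socs3 probe set (10383010) had equal genotype means of 6.28, with SDs of 0.16 (n = 3) and 0.24 (n = 4). PrlR+/- 4 and PrlR+/+ 2 were the highest mice with both probe sets, in opposite order, and over the mice the probe sets had r = 0.778 and rho = 0.786 (exact permutation p = 0.0401 and 0.048, adjusted over 7 pairs 0.107 and 0.084), with r = 0.789 without PrlR+/- 3 and PrlR+/- 4.

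Socs3 belongs to the rapidly induced genes, so immediate early genes were set beside it. All 18 measured immediate early genes had lower means in PrlR+/- islets, against 43.8% of all genes, with a median of -0.255, but 0 had an unadjusted p under 0.05, against 2.20% of all genes. The mean of the list was 9.14 in PrlR+/+ 3, 8.02 and 8.38 in the other PrlR+/+ mice and 8.04 to 8.27 in PrlR+/- mice, and without PrlR+/+ 3 the median difference was -0.011. Fos, a member named after its values were seen, was at 10.30 in PrlR+/+ 3 and at most 8.0 in the 6 other mice. The list mean was thus highest in PrlR+/+ 3 and next highest, at 8.38, in PrlR+/+ 2, the mouse with high Socs3 (8.76). In PrlR+/+ 3 itself Socs3 was at 8.07, below PrlR+/- 4 at 8.29, whose list mean was 8.27. Whether Socs3 and these genes share a cause was not tested. Nr4a1 and Klf6, the list's members of smallest unadjusted p, differed by -0.54 ± 0.25 and -0.25 ± 0.11 (SE).

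Socs4 to Socs7 are the longer members, with extended regions before the SH2 domain, and none of these 4 genes had an unadjusted p under 0.05. Socs4, which like Socs5 is known for limiting epidermal growth factor receptor signalling, had log2 values of 8.90, 8.58 and 8.85 in PrlR+/+ 1 to 3 and of 8.80, 8.78, 8.78 and 8.46 in PrlR+/- 1 to 4. Low mice were found in both groups, PrlR+/- 4 and PrlR+/+ 2. The difference was -0.07 ± 0.12 (SE), with a 95% interval of the ratio of 0.788 to 1.15, and without PrlR+/- 4 it was 0.01.

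Socs5 varied little between PrlR+/+ mice, with log2 values of 8.73, 8.70 and 8.69 in PrlR+/+ 1 to 3 and of 8.85, 8.69, 8.50 and 8.58 in PrlR+/- 1 to 4. PrlR+/- mice lay above, at and below the PrlR+/+ range. The difference was -0.05 ± 0.09 (SE), and the 95% interval of its ratio was 0.835 to 1.11.

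Socs6, which binds the receptor tyrosine kinase KIT and insulin signalling proteins, gave differing answers by probe set. Its brightest one (10566668) had log2 values of 8.05, 8.80 and 8.42 in PrlR+/+ 1 to 3 and of 8.42, 8.06, 8.79 and 8.42 in PrlR+/- 1 to 4, so both groups covered the same range. Its means were 8.42 in both, with a difference of -0.000833 ± 0.21 (SE). A second Socs6 probe set (10460118), with 10 of 20 neighbours on chromosome 18, had log2 values of 7.99, 8.23 and 8.27 in PrlR+/+ 1 to 3 and of 8.24, 7.61, 7.99 and 7.43 in PrlR+/- 1 to 4. PrlR+/- 2 and PrlR+/- 4 lay below every PrlR+/+ mouse, and the difference was -0.35 ± 0.19 (SE), a ratio of 0.787 with a 95% interval of 0.573 to 1.08 (limma over all probe sets, unadjusted p = 0.117, adjusted p = 0.988). The probe sets 10460118 and 10566668 had r = 0.382 and rho = 0.28 over the mice (exact permutation p = 0.367 and 0.557, adjusted over 7 pairs 0.511 and 0.78; r = 0.185 without PrlR+/- 4 and PrlR+/- 2). The third Socs6 probe set (10460116), with 11 of 20 neighbours there, lay between 3.00 and 3.24 on every array, below the lower quartile of genes.

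Socs7, which binds insulin receptor substrates, had log2 values of 8.50, 8.50 and 8.42 in PrlR+/+ 1 to 3 and of 8.46, 8.33, 8.98 and 8.67 in PrlR+/- 1 to 4. PrlR+/- 3 and PrlR+/- 4 were the highest, and PrlR+/- 2 was the lowest of all mice. The difference was 0.14 ± 0.15 (SE), the largest on the higher side in the family, with a ratio of 1.1 and a 95% interval of 0.865 to 1.4; without PrlR+/- 3 it was 0.01. PrlR+/- 3, the highest mouse for Socs7, was the lowest for Cish, Socs3 (both probe sets), Socs1 and Socs5.

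The genes whose pattern over the 7 mice was most like that of a member were named as a description, chosen for the highest r among 7672 other genes with a mean at or above the median gene and an SD of at least 0.1. With so many genes and 7 mice, high values of r are found for any gene, and no p is given. For Cish they were Cldn8, which encodes a tight-junction claudin (r = 0.975), Lclat1 (0.974), Disp2 (0.973), Micu3, a regulator of mitochondrial calcium uptake (0.965), and A130010J15Rik (0.962). Their Spearman rho lay between 0.929 and 0.964, and their r without PrlR+/- 3 and PrlR+/- 4 between 0.892 and 0.974. Cldn8 had log2 values of 12.18, 11.33 and 12.17 in PrlR+/+ 1 to 3 and of 11.55, 11.39, 9.74 and 10.21 in PrlR+/- 1 to 4. As with Cish, PrlR+/- 3 and PrlR+/- 4 were lowest and PrlR+/+ 2 lay below PrlR+/- 1. The span of Cldn8 was wider, with a difference of -1.17 ± 0.48 (SE), and its groups overlapped.

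For the brighter Socs2 probe set the most alike genes were Tmtc4 (r = 0.961), Slc2a13, which encodes a myo-inositol transporter (0.949), Il1rap, the accessory protein of the interleukin 1 receptor (0.943), Serinc5 (0.924) and Ngfr, the low-affinity neurotrophin receptor (0.918). Ngfr had log2 values of 8.90, 8.54 and 9.06 in PrlR+/+ 1 to 3 and of 8.59, 8.15, 8.40 and 8.30 in PrlR+/- 1 to 4, with PrlR+/- 1 above PrlR+/+ 2. PrlR+/- 2 was the lowest mouse for Slc2a13, Tmtc4, Il1rap and Ngfr, as for this probe set. For Socs3 they were Best3 (0.977), the purinergic receptor gene P2ry1 (0.975), Sar1a of vesicle transport from the endoplasmic reticulum (0.974), the pseudokinase gene Trib1 (0.973) and Galnt11 (0.969). P2ry1 was at 10.57 in PrlR+/+ 2 and 8.99 in PrlR+/- 3, the mice with the highest and the lowest Socs3. None of these 15 genes had an adjusted p under 0.05 by limma.

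Genes that work with the family were taken from lists chosen by function, and none of their members passed over all genes. Of 9 measured partners of the SOCS box in the ubiquitin ligase, the mean was lower for 4 and higher for 5 (median 0.013). Cul5, the cullin of that ligase, had log2 values of 9.44, 9.40 and 9.42 in PrlR+/+ 1 to 3 and of 9.32, 9.30, 9.28 and 8.90 in PrlR+/- 1 to 4. Its groups did not overlap, as for 1 of the 9 partners, against 1.21% of all genes with every PrlR+/- mouse lower. PrlR+/- 4 was the lowest, and the difference was -0.22 ± 0.11 (SE) with an unadjusted p of 0.0825 by limma. Elob, which encodes elongin B, differed by 0.23 ± 0.14. Of the 4 SPSB proteins, which join another binding domain to a SOCS box, 3 had lower means (median -0.114), with Spsb2 at -0.30 ± 0.17 and Spsb3 at -0.15 ± 0.11, and PrlR+/+ 2 was the highest mouse for both. Without PrlR+/+ 2 the SPSB median was 0.062.

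Upstream of the family, 9 measured JAK kinases and STAT factors had a median of 0.072, with 3 lower and 6 higher. Jak2, the kinase of the prolactin receptor, was at -0.19 ± 0.10, and Stat5b at 0.09 ± 0.07. Among 12 other restraints on JAK-STAT signalling the median was -0.013, with the PIAS genes Pias3 at 0.25 ± 0.13 and Pias2 at -0.20 ± 0.14. Of 22 receptors and adaptors on which CIS and SOCS proteins act, the mean was lower for 12 and higher for 10 (median -0.014); the oncostatin M receptor gene Osmr was at 0.23 ± 0.14 and the interferon gamma receptor gene Ifngr2 at -0.18 ± 0.10. In these 3 lists and the 2 SOCS box lists, 0 genes had an unadjusted p under 0.05, against 2.20% of all genes.

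Other STAT5 targets lay mostly on the lower side. Of 14 measured genes 12 had lower means, against 43.8% of all genes, with a median of -0.105. The list was not split by whether STAT5 raises or lowers a gene, so a lower mean need not have the same meaning for each. With 1 mouse left out that median ran from -0.19 (without PrlR+/+ 1) to -0.072 (without PrlR+/- 1). At an unadjusted p under 0.05, 2 were on the lower side, against 1.13% of all genes. Tnfrsf11b, which encodes the decoy receptor osteoprotegerin, had log2 values of 9.95, 9.36 and 9.68 in PrlR+/+ 1 to 3 and of 9.20, 8.81, 8.47 and 9.34 in PrlR+/- 1 to 4, without overlap. It was 1 of 14 genes with every PrlR+/- mouse lower, against 1.21% of all genes. Its difference was -0.71 ± 0.23 (SE; limma, unadjusted p = 0.017, adjusted p = 0.99). Tph2, a tryptophan hydroxylase of serotonin synthesis, differed by -0.62 ± 0.23 (unadjusted p = 0.0294, limma), and PrlR+/- 1 lay above PrlR+/+ 2, as it did for Cish. Tph1, the other tryptophan hydroxylase gene, named after its values were seen, had the lowest difference of the list, -1.53 ± 0.71 (SE; limma, unadjusted p = 0.0673), with PrlR+/- 3 at 7.64 and the other PrlR+/- mice at 10.12 to 10.72. The list was chosen with earlier results of these arrays known and is no independent evidence of direction. Of 13 interferon-induced genes 3 had lower and 10 higher means (median 0.053), with Psmb8 at 0.23 ± 0.16 and Gbp3 at 0.17 ± 0.09.

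**Figure D4:**
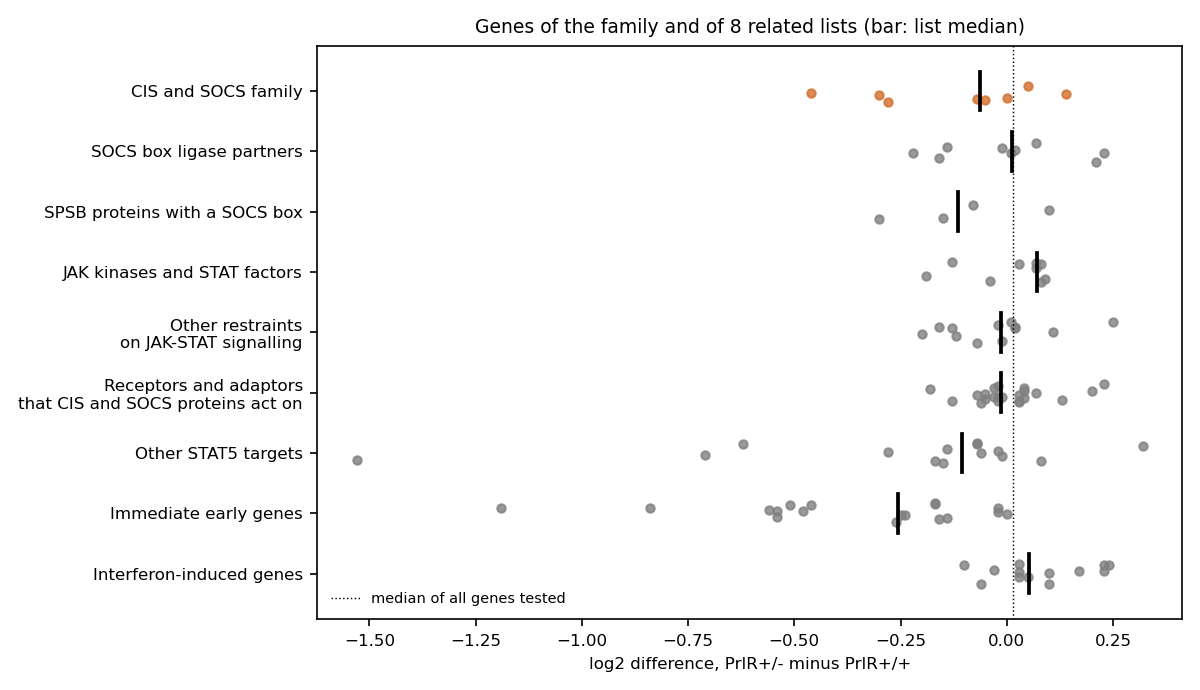
Log2 difference of PrlR+/- minus PrlR+/+ islets for each measured gene of the family (orange) and of 8 related lists (grey), 1 point a gene, with the list median as a bar and the median of all genes tested as a dotted line. The family's median lies at -0.062 with Cish farthest to the left, and the immediate early genes have the lowest median, -0.255, which was -0.011 without PrlR+/+ 3.

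The arrays were alike as a whole. Array medians over genes ran from 7.34 to 7.37. Any 2 arrays had an r of 0.9883 to 0.9974 across genes, and genes are no independent replicates. All 9 measured beta cell markers lay above the upper quartile of genes on every array, with list means of 12.05 to 12.21 in PrlR+/+ and 11.92 to 12.16 in PrlR+/- mice. The 9 acinar markers did too, so exocrine RNA was present in every sample (12.95 to 13.37 and 13.09 to 13.42). In a fit with the mean of these acinar markers as a term, Cish differed by -0.419 and Socs2 by -0.243. The marker lists of 3 cell types had group ranges that did not overlap, all higher in PrlR+/- mice: macrophage and myeloid (6.78 to 6.87 against 6.61 to 6.71), alpha cell (11.04 to 11.10 against 10.98 to 11.00) and Schwann cell and neuron (7.13 to 7.36 against 7.01 to 7.11). Their part in the values of Cish and Socs2 was not tested. Over all single genes, the mean was lower in PrlR+/- mice for 43.8%, and every PrlR+/- mouse was higher for 1.03%. Lower means in PrlR+/- mice were found for 1 of 8 measured myeloid, 0 of 4 alpha cell and 0 of 5 Schwann cell and neuron markers. The other lists apart from beta cells had few as well, with 0 of 3 delta cell, 0 of 4 PP cell, 1 of 9 acinar, 2 of 5 duct, 3 of 8 endothelial, 1 of 7 lymphocyte and 1 of 8 stellate cell and fibroblast markers. Of the beta cell markers 6 of 9 had lower means, with a median difference of -0.041. Delta cell means were 10.66 to 11.12 and 10.72 to 11.19, PP cell means 9.58 to 9.71 and 9.66 to 9.80, duct means 7.39 to 7.58 and 7.46 to 7.77, endothelial means 9.32 to 9.42 and 9.30 to 9.65, lymphocyte means 5.45 to 5.54 and 5.47 to 5.81, and stellate cell and fibroblast means 7.29 to 7.55 and 7.30 to 7.74, in PrlR+/+ and PrlR+/- mice.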

How the data were processed

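The deposited table held log2 values with 2 decimals for 35556 probe sets, between 1.73 and 13.97, whose range is that of a log2 scale. The authors used Affymetrix Expression Console 1.2.0.20, per the submitters' processing notes; how the arrays were background-corrected, normalized and summarized is not stated there or in the labels. Per the labels, 250 ng of RNA with an integrity number above 8.5 was used for each array. Platform annotation named 21789 probe sets with 1 symbol, 1621 with several and left 12146 unlisted; the last 2 kinds were not tested. The highest-mean probe set stood for each of 999 genes with more than 1, leaving 19938 genes, with no filter on dim genes. Differences come from limma 3.58.1 (lmFit and eBayes, R 4.3.3), 2-sided, Benjamini-Hochberg over all genes, threshold 0.05. The fit was also run on simulated data with shifts far larger than any difference in the family. That run gives no measure of how well differences of the family's size would be found. Exact permutation tests used all 35 splits of the mice, or all pairings for correlations (numpy, scipy 1.17.1). The number of arrays limits the precision; the median SE of a log2 difference was 0.0977. No batch was named in the labels. Lists had 2 named genes each, those of smallest unadjusted p. The members and lists were chosen with earlier results of these data known.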

Additional observations from a re-analysis of the deposited data

Results flagged for a closer look

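In Socs4 (probe set 10414350), PrlR+/- 4 had a log2 value of 8.46, while the other 3 PrlR+/- mice lay between 8.78 and 8.80. Its gap to the nearest mouse was 0.941 of the whole range of the 4 mice, above Dixon's critical value of 0.829. It was 1 of 12 probe sets examined this way in the PrlR+/- group, and chance gives about 1 in 20. The 3 PrlR+/+ mice were too few for this check.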

How the results depend on the processing

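Cish and Socs2 kept their direction and an adjusted p over 0.05 in all 17 alternatives by limma, from -0.466 to -0.348 for Cish and -0.294 to -0.231 for Socs2 in the 10 that kept all mice or used the replicate block, and from -0.563 to -0.367 and -0.343 to -0.227 with 1 mouse left out. Their unadjusted p passed 0.05 throughout for Socs2; for Cish it was 0.0574 without PrlR+/+ 1, 0.0611 without PrlR+/+ 3 and 0.063 with the replicate block, which used mice 1 to 3 of each group. With that block the differences were -0.403 for Cish, -0.283 for Socs2, -0.01 for Socs1 and 0.01 for Socs4, the last 2 reversed. The block leaves out PrlR+/- 4, and all of these differences equal those found without that mouse and with no block. They are therefore no separate check. Same-numbered mice had correlations of 0.09, -0.386 and -0.029 between their deviations, and differently numbered mice -0.238 to 0.398. With so few mice these values cannot tell whether the numbers pair the mice. The cause of the other reversals was not tested. Socs5 was at 0.042 and Socs6 at 0.073 with array weights. With quantile normalization Socs6 was at 0.014, and the probe sets Socs3 10383010 and Socs6 10566668 were at -0.023 and 0.015. Leaving out 1 mouse gave -0.01 to 0.103 for Socs1, -0.17 to 0.01 for Socs4 and -0.188 to 0.187 for Socs6. Socs3 and Socs7 kept their direction, from -0.425 to -0.06 and from 0.013 to 0.23 without 1 mouse. The JAK and STAT median of 0.072 was -0.003 with array weights, 0.02 with the block and 0.01 to 0.097 with 1 mouse left out. The count of genes called was 0 in each alternative and by the exact permutation test, and 438 at an unadjusted p under 0.05. Dim probe sets may hide changes.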
